A study of Mus musculus with 8 samples.

Results

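Adenosine and purine nucleoside handling was followed through 10 genes in liver sinusoidal endothelial cells (LSECs), the fenestrated cells that line the hepatic sinusoids. The 10 genes were Ada, Pnp, Pnp2, Adk, Nt5e, Entpd1, Dpp4, Adora1, Adora2a and Adora2b. They were chosen by function and selected on results of this same genotype comparison, in which Ada was already known to differ, so that their values are given as a description. Each of them had 1 row in a table of 25428 gene rows, and all 10 were measured in all 8 samples. The samples were 4 pools of Ctnnb1OE-EC LSECs and 4 pools of Ctnnb1WT LSECs, with cells of 2 mice in each pool. All mice were females of 2 months on a C57BL/6J background, and LSECs were isolated with magnetic beads against CD146. Ctnnb1OE-EC mice carried Clec4g-iCre tg/wt and Ctnnb1(Ex3) fl/wt, so that an exon of Ctnnb1 was removed where the driver was active, which leaves β-catenin, the effector of canonical Wnt signaling, overactive. The Clec4g-iCre driver also acts in endothelial cells of the heart, and the study describes cardiac dysfunction in these mice, so effects of the liver and of the heart cannot be told apart. The Ctnnb1WT samples are labelled as Ctrl, and whether these mice carried the driver or the floxed allele alone is not given in the sources used here. The labels call each pool a biological replicate, and the p-values measure the spread between pools, not between single mice.

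Adenosine outside the cell comes mainly from released ATP. The ectoenzyme CD39 (Entpd1) removes phosphates from ATP and ADP, and CD73 (Nt5e) turns the resulting AMP into adenosine. Adenosine then binds receptors on the cell surface, of which the products of Adora2a and Adora2b raise cyclic AMP and that of Adora1 lowers it. The signal ends when adenosine deaminase (Ada) converts adenosine to inosine, which purine nucleoside phosphorylase (Pnp) splits into hypoxanthine and ribose phosphate, or when adenosine kinase (Adk) returns adenosine to AMP inside the cell. Dpp4 (CD26) is a peptidase of the cell surface, and in humans it also binds ADA there. Endothelial cells are known for a high turnover of adenosine, and LSECs face the portal blood directly.

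Ada and Pnp2 had the most negative differences of the 10 genes. In Ctnnb1OE-EC LSECs relative to Ctnnb1WT LSECs, Ada was 6.52-fold lower and Pnp2 was 3.82-fold lower, with no overlap between the genotypes. Adk and Adora2a had higher means in Ctnnb1OE-EC LSECs, by 0.99 and 0.84 on the log2 scale, with overlapping groups. The enzymes that form adenosine, Entpd1 and Nt5e, overlapped between the genotypes, as did Pnp, Adora1 and Adora2b. Values are deposited log2 expression values after background correction and quantile normalization, and each log2 difference is Ctnnb1OE-EC minus Ctnnb1WT with its standard error (SE) from limma. A row was called at a Benjamini-Hochberg adjusted p under 0.05 over all rows. Of the 10 genes 2 were called, Ada and Pnp2, both lower. Over all rows 0.92% were called in either direction and 0.385% were called lower. The genotypes did not overlap in 3 of the 10 genes, Ada, Pnp2 and Dpp4, all lower, against 7.59% of all rows in either direction and 4.04% in the lower direction. Because these genes were chosen on the same comparison, nothing was read from either count. A plain analysis of variance for each row, run here on the deposited values, called 0 of the 10 after adjustment. The lowest adjusted p of the 10 in that analysis of variance was 0.0507, just over the threshold. By both tests 5 of the 10 had an unadjusted p under 0.05, against 11.5% of all rows by limma and 10.9% by the analysis of variance. Ada and Dpp4 are among the genes that the study itself lists as changed in these samples, from its own analysis of variance in another software package, which was not rerun here. Pnp2 is not in that list. The median log2 difference of the 10 genes was -0.22, against -0.01 over all rows.

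**Figure D1:**
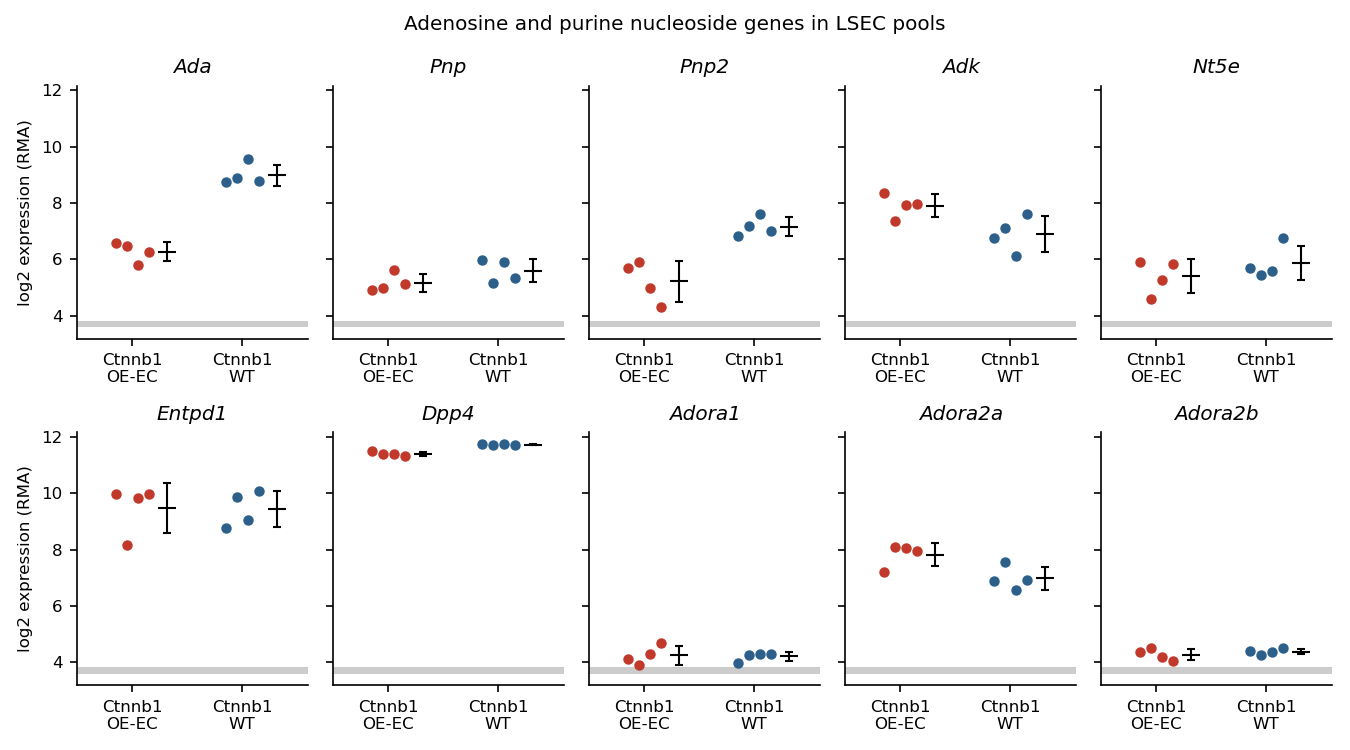
Log2 expression of the 10 genes in each sample (points, y axis), with Ctnnb1OE-EC pools in red on the left and Ctnnb1WT pools in blue on the right of each panel, replicates 1 to 4 in order, where black marks give the mean ± SD (n = 4 each) and the grey band spans 3.60 to 3.83, the background level of the 8 samples. Ada, Pnp2 and Dpp4 are the panels in which the genotypes do not overlap.

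Ctnnb1 itself averaged 10.63 ± 0.07 in Ctnnb1OE-EC and 10.28 ± 0.26 in Ctnnb1WT samples (SD, n = 4 each), a difference that was not called (adjusted p = 0.361 from limma), and its 1 row covers the gene as a whole and not the removed exon. Axin2, a common target of Wnt signaling, rose by 2.14 (SE 0.19, adjusted p = 0.00136 from limma), and Clec4g differed by -0.15 (SE 0.08, adjusted p = 0.546). The mean of 10 LSEC markers was 10.97 to 11.21 in Ctnnb1OE-EC and 11.48 to 11.62 in Ctnnb1WT samples, with 9 of 10 markers lower on average and 2 called. All 10 were above background in every sample. The mean of 8 pan-endothelial markers was 11.18 to 11.32 in Ctnnb1OE-EC and 11.10 to 11.30 in Ctnnb1WT samples. Hepatocyte markers averaged 6.99 to 9.91 in Ctnnb1OE-EC and 7.97 to 9.52 in Ctnnb1WT samples. Kupffer cell markers averaged 7.48 to 9.39 in Ctnnb1OE-EC and 7.66 to 9.48 in Ctnnb1WT samples, and all 8 markers of each of these cell types were above background in every sample. The background level was set per sample at the 95th percentile of 1088 olfactory receptor rows, genes not transcribed in liver. All 10 adenosine genes were above it in all 8 samples, but only Ada, Adk, Entpd1, Dpp4 and Adora2a were above the 99th percentile in all of them.

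Ada had log2 values of 6.58, 6.48, 5.79 and 6.25 in Ctnnb1OE-EC replicates 1 to 4, against 8.73, 8.88, 9.54 and 8.78 in Ctnnb1WT replicates 1 to 4. The highest Ctnnb1OE-EC pool lay 2.15 below the lowest Ctnnb1WT pool. The means were 6.28 ± 0.35 in Ctnnb1OE-EC and 8.98 ± 0.38 in Ctnnb1WT samples (SD, n = 4 each), and the log2 difference of -2.70 (SE 0.22) was the lowest of all 25428 rows. Leaving out 1 sample at a time gave values between -2.81 and -2.52, and leaving out Ctnnb1OE-EC replicates 3 and 4 together gave -2.45. These 2 pools had higher neutrophil and monocyte markers (means of 5.42 and 5.57, at most 4.77 in the other 6 samples) and higher adrenal cortex markers (5.79 and 4.85, at most 3.36 in the others). The adrenal cortex means of the other 6 samples were below background. Only 3 of 8 neutrophil and monocyte markers and 1 of 7 adrenal cortex markers were above background in every sample. Limma called 0 markers in either list. Ada is abundant in lymphocytes. The mean of 10 T and NK cell markers was 4.17 to 5.10 in Ctnnb1OE-EC and 4.43 to 4.84 in Ctnnb1WT samples. All 10 had a higher mean in Ctnnb1OE-EC, with overlapping ranges of the list mean. Of these markers Cd3d, Cd2, Cd8a and Ncr1 were not above background in every sample, and limma called 0 of the 10. The mean of 7 B cell markers was 4.23 to 5.07 in Ctnnb1OE-EC and 4.23 to 4.88 in Ctnnb1WT samples. In RNA of whole pools, fewer cells of a type and less RNA per cell cannot be told apart. The parts of lymphocyte RNA and of the LSEC marker shift in the Ada difference were not tested.

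Pnp2 lies directly beside Pnp on chromosome 14 and is a close copy of it, so signal of shared probe sequence may be divided between the rows and the values of both are uncertain in that respect. Pnp2 had 5.68, 5.90, 5.003 and 4.31 in Ctnnb1OE-EC replicates 1 to 4, against 6.83, 7.17, 7.62 and 7.01 in Ctnnb1WT replicates 1 to 4. Every Ctnnb1OE-EC pool was at least 0.93 below every Ctnnb1WT pool, and the Ctnnb1OE-EC pools were spread more widely. The means were 5.22 ± 0.72 in Ctnnb1OE-EC and 7.16 ± 0.33 in Ctnnb1WT samples (SD, n = 4 each), with a log2 difference of -1.93 (SE 0.33). The difference was lower in all 8 fits that left out 1 sample (-2.16 to -1.63), but the row was called in 2 of them, without Ctnnb1OE-EC replicate 2 (-2.16) or without Ctnnb1OE-EC replicate 4 (-1.63). It was not called without Ctnnb1OE-EC replicate 1 (-2.09) or 3 (-1.86), nor without Ctnnb1WT replicates 1 (-2.04), 2 (-1.93), 3 (-1.78) or 4 (-1.98). Without Ctnnb1OE-EC replicates 3 and 4 together it was -1.37 and not called. Pnp had 4.93, 4.99, 5.61 and 5.12 in Ctnnb1OE-EC replicates 1 to 4, against 5.98, 5.16, 5.90 and 5.34 in Ctnnb1WT replicates 1 to 4. The pools of the genotypes interleaved, and the log2 difference was -0.43 (SE 0.22).

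Dpp4 had the tightest values of the 10 genes. It measured 11.50, 11.37, 11.40 and 11.30 in Ctnnb1OE-EC replicates 1 to 4, against 11.74, 11.72, 11.73 and 11.70 in Ctnnb1WT replicates 1 to 4. The Ctnnb1WT pools fell within a narrow band, with the highest Ctnnb1OE-EC pool 0.20 below it. The means were 11.39 ± 0.08 in Ctnnb1OE-EC and 11.72 ± 0.02 in Ctnnb1WT samples (SD, n = 4 each), a log2 difference of -0.33 (SE 0.08). Its pooled SD of 0.0598 was at percentile 1.23 of all rows, where the median was 0.184. The row was not called in the main fit, and it was called with a trended and robust variance prior. Dpp4 is also in the study's own list of changed genes.

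Adk, the kinase that returns adenosine to AMP, had 8.35, 7.35, 7.92 and 7.97 in Ctnnb1OE-EC replicates 1 to 4, against 6.77, 7.12, 6.11 and 7.62 in Ctnnb1WT replicates 1 to 4. Ctnnb1WT replicate 4 lay above Ctnnb1OE-EC replicate 2, and the other pools were separated by genotype. The means were 7.90 ± 0.41 in Ctnnb1OE-EC and 6.90 ± 0.63 in Ctnnb1WT samples (SD, n = 4 each), with a log2 difference of 0.99 (SE 0.31) that lay between 0.73 and 1.23 when 1 sample was left out. Adk is also strongly expressed in hepatocytes. In the 2 overlapping pools, the hepatocyte markers averaged 8.67 in Ctnnb1OE-EC replicate 2 and 9.52 in Ctnnb1WT replicate 4. In the other pools they were at 9.91, 6.99 and 7.54 in Ctnnb1OE-EC replicates 1, 3 and 4, against 9.33, 7.97 and 8.12 in Ctnnb1WT replicates 1, 2 and 3. All 8 hepatocyte markers had a lower mean in Ctnnb1OE-EC, and limma called 0 of them. The part of hepatocyte RNA in the Adk values was not tested.

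To show the sequence around the starts of these genes, promoter windows of 250 bases before to 50 bases after the start were taken from RefSeq (GRCm38.p6). Of the 10 genes 8 had at least 1 window, 11 windows in all, and Pnp2 and Adora2a had none here. Ada, with the lowest difference, Adk, with the highest mean difference, and Dpp4, with the tightest values, are printed 5′ to 3′ on the strand of the gene, and capitals mark GC boxes (GGGCGG or its reverse complement CCGCCC). The windows are Ada at chr2:163750190-163750489 (minus strand), Adk at its first start at chr14:21052324-21052623 (plus strand) and Dpp4 at chr2:62412182-62412481 (minus strand).
Ada: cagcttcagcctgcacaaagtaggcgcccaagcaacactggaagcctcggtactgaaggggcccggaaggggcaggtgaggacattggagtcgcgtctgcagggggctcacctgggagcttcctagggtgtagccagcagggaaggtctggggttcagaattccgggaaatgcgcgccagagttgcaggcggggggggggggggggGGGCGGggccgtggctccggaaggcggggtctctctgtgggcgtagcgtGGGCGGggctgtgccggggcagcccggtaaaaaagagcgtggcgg
Adk: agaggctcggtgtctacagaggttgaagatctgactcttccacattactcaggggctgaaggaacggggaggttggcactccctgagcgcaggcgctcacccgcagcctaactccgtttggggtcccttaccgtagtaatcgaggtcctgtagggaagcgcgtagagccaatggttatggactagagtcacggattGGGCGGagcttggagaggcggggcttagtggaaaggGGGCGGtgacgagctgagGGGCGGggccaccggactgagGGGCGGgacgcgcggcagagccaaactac
Dpp4: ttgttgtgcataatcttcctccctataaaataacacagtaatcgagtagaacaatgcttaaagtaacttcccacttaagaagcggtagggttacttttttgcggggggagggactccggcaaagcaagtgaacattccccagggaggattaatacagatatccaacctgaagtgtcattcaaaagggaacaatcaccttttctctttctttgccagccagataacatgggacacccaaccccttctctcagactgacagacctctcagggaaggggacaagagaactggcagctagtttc
The Ada window held 2 GC boxes, 1 on each side of the start, and 68% G and C. The Adk window held 4 GC boxes and 61.7% G and C, and the Dpp4 window held 0 GC boxes and 45.3% G and C, against a median of 52.7% over all windows. GC boxes, searched on both strands, were found in 7 of the 11 windows of these genes and in 35.7% of all 32851 windows. The words CTTTGAA and CTTTGAT, core sequences of TCF and LEF factors, the DNA-binding partners of β-catenin, were searched on both strands as well. Either word was found in 8.65% of all windows and in 0 of the 11, which says only that these letters are not in these windows.

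Entpd1 and Nt5e, which form adenosine outside the cell, varied more between pools than between genotypes. Entpd1 had 9.98, 8.16, 9.84 and 9.97 in Ctnnb1OE-EC replicates 1 to 4, against 8.78, 9.87, 9.03 and 10.07 in Ctnnb1WT replicates 1 to 4. Low pools occurred in both genotypes, and the pooled SD of 0.770 was at percentile 98.0 of all rows. The log2 difference was 0.05 (SE 0.45), and it lay between -0.17 and 0.49 when 1 sample was left out, with the highest value without Ctnnb1OE-EC replicate 2. CD39 is also present on Kupffer cells, whose markers were at their lowest in Ctnnb1OE-EC replicate 2 (7.48), the pool with the lowest Entpd1 value, but were at their highest in Ctnnb1WT replicate 1 (9.48), the pool with the second lowest. The part of Kupffer cell RNA in the Entpd1 values was not tested. Nt5e had 5.91, 4.60, 5.29 and 5.83 in Ctnnb1OE-EC replicates 1 to 4, against 5.71, 5.46, 5.60 and 6.76 in Ctnnb1WT replicates 1 to 4. The genotypes overlapped, and the log2 difference was -0.48 (SE 0.35).

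Among the receptors, Adora2a had 7.21, 8.07, 8.05 and 7.94 in Ctnnb1OE-EC replicates 1 to 4, against 6.89, 7.55, 6.58 and 6.91 in Ctnnb1WT replicates 1 to 4. All pools but Ctnnb1OE-EC replicate 1 and Ctnnb1WT replicate 2 were separated by genotype. The means were 7.82 ± 0.41 in Ctnnb1OE-EC and 6.98 ± 0.41 in Ctnnb1WT samples (SD, n = 4 each), and the log2 difference of 0.84 (SE 0.24) lay between 0.70 and 1.04 when 1 sample was left out. Adora1 and Adora2b were close to the array median of 4.195. Adora1 had 4.11, 3.92, 4.29 and 4.70 in Ctnnb1OE-EC and 3.98, 4.28, 4.30 and 4.29 in Ctnnb1WT replicates 1 to 4, and Adora2b lay between 4.05 and 4.49 in Ctnnb1OE-EC and between 4.26 and 4.49 in Ctnnb1WT samples. Their log2 differences of 0.04 (SE 0.17) and -0.12 (SE 0.11) rest on signal that is hardly above background. Adora3, the remaining adenosine receptor, was above background in 1 of 8 samples.

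**Figure D2:**
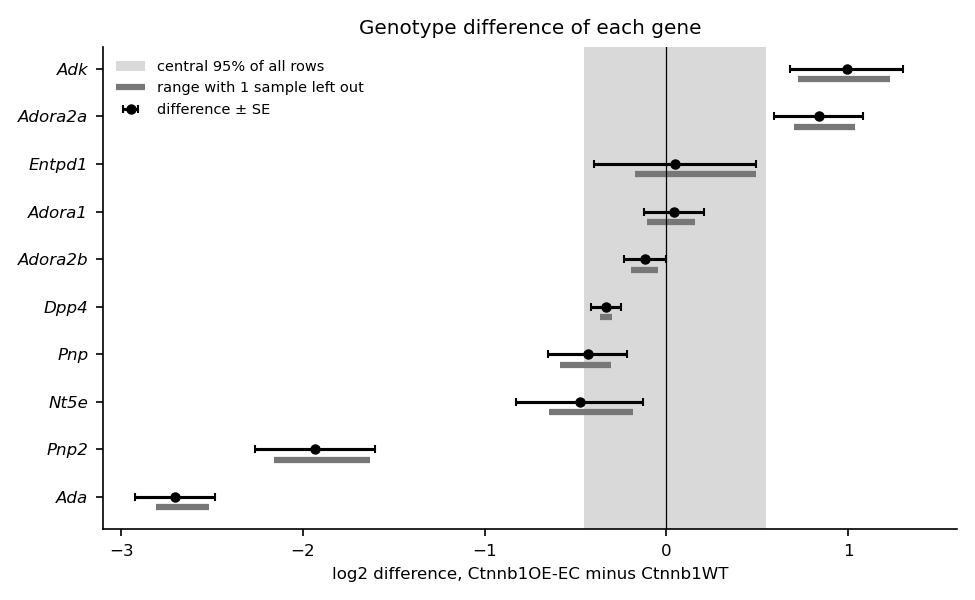
Log2 difference (Ctnnb1OE-EC minus Ctnnb1WT, x axis) of each gene with its SE, the range when 1 of the 8 samples was left out below it, and the central 95% of all rows (-0.45 to 0.55) shaded. Ada and Pnp2 lie far to its left, Adk (0.99) and Adora2a (0.84) to its right, Nt5e (-0.48) just outside, and the other 5 within it.

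The genes whose values ran closest to those of Ada over the 8 samples, each centred on its own mean, were Flrt1, Cd209b, Ang, Pnp2 and Enpp6, with root mean square differences of 0.41, 0.48, 0.53, 0.54 and 0.54 on the log2 scale. Pnp2 was thus the only other adenosine gene among these 5. Cd209b is a lectin of LSECs, Ang a secreted ribonuclease and Enpp6 a choline phosphodiesterase. With the sign turned, the closest were Hunk, Lypd6 and Cd34, with 0.31, 0.32 and 0.33. Their log2 differences were 2.37, 3.03 and 3.10. All 8 samples take part in the genotype contrast, so a gene that differs between the genotypes as much as Ada does is close by this measure.

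In gene order along the chromosome, 0 of the 10 measured genes on each side of Ada were called by limma, and their log2 differences lay between -0.32 and 0.16. Beside Pnp2, 2 of 20 were called, Rnase4 and Ang, neighbouring genes of secreted ribonucleases at 6 and 7 genes after it. Rnase4 had 9.75, 9.43, 8.94 and 9.15 in Ctnnb1OE-EC and 11.08, 10.55, 11.22 and 10.96 in Ctnnb1WT replicates 1 to 4, a log2 difference of -1.64 (SE 0.20, adjusted p = 0.00754 from limma). Ang fell by 1.94 (SE 0.34, adjusted p = 0.0373). The genes between Pnp2 and Rnase4 were not called. Beside Adk, Plau, the urokinase plasminogen activator, was called at 3 genes before it (-1.17, adjusted p = 0.0244), in the direction opposite to Adk, and 1 gene was called beside Dpp4, the phospholipase receptor Pla2r1 (-1.49, adjusted p = 0.00919). Beside Nt5e, Entpd1 and the receptors 0 of 20 genes were called in each case. Over all rows 0.92% were called. The neighbours were named after their values were seen, so nothing was read from these counts.

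**Figure D3:**
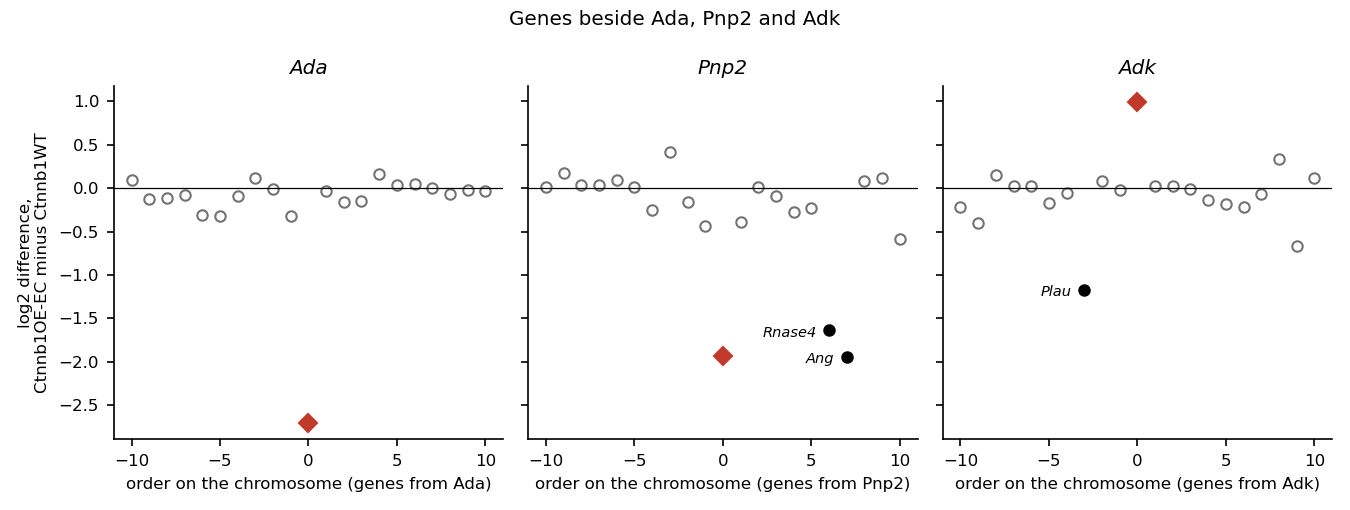
Log2 difference (y axis) of the 10 measured genes before and after Ada, Pnp2 and Adk, in their order on the chromosome (x axis, number of genes), where red diamonds are Ada, Pnp2 and Adk, black points are neighbours called by limma and open points were not called. Around Ada the neighbours stay between -0.32 and 0.16, while Rnase4 (-1.64) and Ang (-1.94) lie near the value of Pnp2.

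The other genes of purine and pyrimidine handling were taken as 11 lists with 113 measured genes. The mean was higher in Ctnnb1OE-EC LSECs for 54 of these and lower for 59, and the median log2 difference was -0.01, as over all rows. Limma called 6 of the 113 (5.31%, against 0.92% of all rows), 3 higher and 3 lower, and 22 had an unadjusted p under 0.05 (19.5%, against 11.5% of all rows). The analysis of variance run here called 0 after adjustment, with 22 at an unadjusted p under 0.05. The lists were chosen with earlier results of these data known, and all 6 calls come from these same samples. None of them is thus independent evidence. Gnai1 and P2ry10b are also among the genes that the study lists as changed. Of the 113 genes 77 were above background in all samples, against 12932 of all 25428 rows, so the shares compare sets of unlike expression level.

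Pyrimidine nucleoside enzymes held 3 of the 6 calls among 10 genes. Uck2, a uridine and cytidine kinase of the salvage route, had 4.38, 4.06, 4.82 and 4.87 in Ctnnb1OE-EC replicates 1 to 4, against 3.41, 3.45, 2.87 and 3.57 in Ctnnb1WT replicates 1 to 4 (log2 difference 1.21, SE 0.21, adjusted p = 0.0373 from limma). It was above background in all 4 Ctnnb1OE-EC and in 0 of 4 Ctnnb1WT pools. With the Ctnnb1WT values set to the background level it was 1.74-fold higher, a value that depends on the percentile chosen. The 99th percentile lay at 4.66 to 4.97 in the Ctnnb1WT pools, above the Ctnnb1OE-EC mean of 4.53, so no lowest fold follows there. Uck2 was above that percentile in 2 samples. Dctd, the deaminase of dCMP, rose to 5.28, 5.18, 5.99 and 5.79 in Ctnnb1OE-EC replicates 1 to 4, against 4.66, 4.71, 4.22 and 4.30 in Ctnnb1WT replicates 1 to 4 (1.09, SE 0.20, adjusted p = 0.0457 from limma). Cda, the deaminase of cytidine, fell to 6.41, 6.44, 5.95 and 5.88 in Ctnnb1OE-EC replicates 1 to 4, against 7.25, 7.06, 6.81 and 6.99 in Ctnnb1WT replicates 1 to 4 (-0.86, SE 0.16, adjusted p = 0.0448 from limma). Without Ctnnb1OE-EC replicates 3 and 4 together, the log2 differences of Uck2, Dctd and Cda were 0.89, 0.76 and -0.61, and none was called. The part of other cell types in those pools was not tested for these genes. The genotypes did not overlap in any of these 3 genes, against 7.59% of all rows without overlap. These 3 genes were picked as called genes, so the separation adds nothing to the calls. The remaining 7 genes of the list were not called.

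Of 14 genes of adenosine receptor coupling, 1 was called. Gnai1, an inhibitory G protein subunit that couples the products of Adora1 and Adora3 to adenylate cyclase, had 6.60, 6.74, 6.87 and 6.58 in Ctnnb1OE-EC replicates 1 to 4, against 5.71, 5.74, 6.00 and 5.96 in Ctnnb1WT replicates 1 to 4 (0.84, SE 0.11, adjusted p = 0.00989 from limma). No other G protein subunit or adenylate cyclase of the list was called. Of 16 genes listed as P2 receptors, 1 was called, P2ry10b, which is in the list by its family name. It fell to 3.81, 3.73, 3.98 and 4.12 in Ctnnb1OE-EC replicates 1 to 4, against 4.75, 4.84, 4.59 and 4.58 in Ctnnb1WT replicates 1 to 4 (-0.78, SE 0.11, adjusted p = 0.0170 from limma). P2ry10b was above background in all 8 samples, but above the 99th percentile in only 1. Its Ctnnb1OE-EC values are close to background, so the size of the fall is uncertain. Of 7 relatives of Dpp4, Dpp7, a lysosomal dipeptidyl peptidase, fell to 7.83, 8.002, 7.72 and 7.53 in Ctnnb1OE-EC replicates 1 to 4, against 8.53, 8.42, 8.59 and 8.34 in Ctnnb1WT replicates 1 to 4 (-0.70, SE 0.12, adjusted p = 0.0310 from limma). When 1 sample was left out, Gnai1 was called in 8 of 8 fits (adjusted p 0.0201 to 0.0391 from limma). P2ry10b was called in 3, without Ctnnb1OE-EC replicate 2 or 4 or Ctnnb1WT replicate 3 (0.0202 to 0.0658 over the 8 fits). Cda, Uck2, Dctd and Dpp7 were called only without Ctnnb1OE-EC replicate 2, and in the other 7 fits their adjusted p lay between 0.0608 and 0.152.

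**Figure D4:**
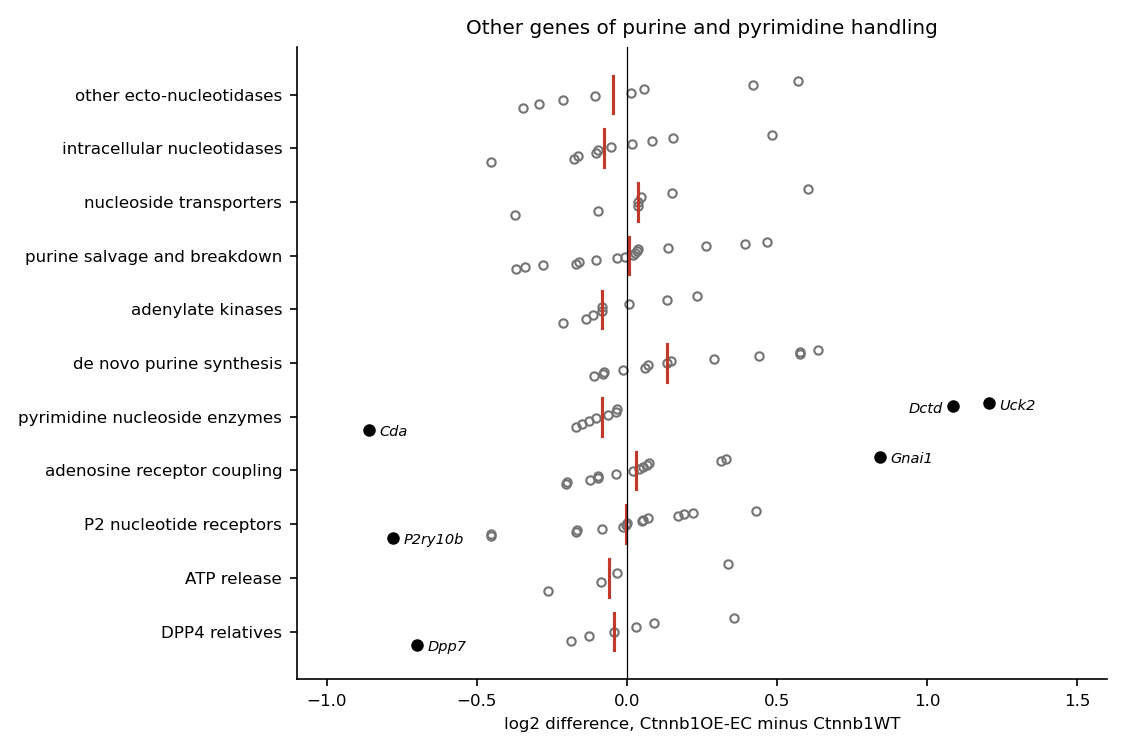
Log2 difference (Ctnnb1OE-EC minus Ctnnb1WT, x axis) of each of the 113 other genes, by list. Black points are the 6 genes called by limma, open points were not called, and red bars are the medians of the lists, which lie between -0.08 and 0.13.

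In the 7 other lists limma called 0 genes, and the analysis of variance run here also called 0. De novo purine synthesis, the route that builds the ring, had 9 of 13 genes with a higher mean and a median of 0.13. An unadjusted p under 0.05 from limma was found for 5 of the 13, against 11.5% of all rows, and nothing was read from this count. Impdh2, the enzyme of guanine nucleotide synthesis, had a log2 difference of 0.64 (SE 0.16, adjusted p = 0.144 from limma) and Prps1, which makes the ribose donor, 0.44 (SE 0.13, adjusted p = 0.229). Of 10 intracellular nucleotidases 2 had an unadjusted p under 0.05, Nt5c3b (0.48, adjusted p = 0.0755 from limma) and Entpd5 (-0.45, adjusted p = 0.191). The genotypes did not overlap in either, as in 7.59% of all rows. Of 8 other ecto-nucleotidases 2 had an unadjusted p under 0.05, Enpp3 (0.57, adjusted p = 0.257 from limma) and Cd38 (-0.35, adjusted p = 0.290), a consumer of NAD at the cell surface. The genotypes overlapped in both. Among 7 nucleoside transporters, Slc29a1 (ENT1), which carries adenosine across the membrane in both directions, had 10.28 to 10.53 in Ctnnb1OE-EC and 10.62 to 11.18 in Ctnnb1WT samples (-0.37, adjusted p = 0.314 from limma), the only one with an unadjusted p under 0.05. Slc28a2, a concentrative transporter, had 0.60 (adjusted p = 0.573) and was above background in 3 samples. Of 16 genes of purine salvage and breakdown only Dck, the kinase of deoxycytidine and deoxyadenosine, had an unadjusted p under 0.05 (-0.34, adjusted p = 0.288 from limma), and Ampd3, an AMP deaminase, had -0.28 (adjusted p = 0.499). Of 8 adenylate kinases 0 did, and Ak8 had -0.21 (adjusted p = 0.548 from limma). Of 4 genes of ATP release 1 did, the channel Panx1 (0.34, adjusted p = 0.398 from limma), and the vesicular carrier Slc17a9 had -0.26 (adjusted p = 0.796).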

How the data were processed

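RNA of 4 Ctnnb1OE-EC and 4 Ctnnb1WT pools of LSECs was hybridized to Affymetrix MoGene-2_0-st arrays. Annotation by the authors used a custom CDF (version 22) that defines 1 row for each Entrez gene. The authors then applied the background correction of RMA, followed by quantile normalization, and the deposited values are log2 values. They were used here as deposited, with no added normalization or filter, and other background corrections were not run. Sample medians were 4.195 to 4.196, and samples correlated across genes with 0.975 to 0.992. Precision is limited by the number of arrays. Of 25428 rows, 25269 were named by Entrez identifier through RefSeq (GRCm38.p6) or the platform annotation, and 159 were left unnamed. The rows of Adora1, Adora2a and Adora2b were named through RefSeq alone.

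For each row limma 3.58.1 (R 4.3.3) fitted the group means (lmFit, then eBayes without trend, with 3.21 prior degrees of freedom). P-values were two-sided and adjusted by Benjamini-Hochberg across the 25428 rows, and 0.05 was the threshold. The steps were tested on simulated data. The 10 genes, the 11 lists of other purine and pyrimidine genes and the 14 lists of cell type markers were chosen with earlier results of these data known. Named were the 10 genes, each called gene of a list or, where none was called, up to 2 genes of smallest p, Ctnnb1, Clec4g and Axin2, and the 5 and 3 genes closest to Ada. Named neighbours on the chromosome and Adora3 were added after their values were seen. Entpd4 and Entpd4b were not analysed here. The methods name an analysis of variance with false discovery rate correction in a commercial package, whose settings are not given in the sources used here, so the version run here stands for itself and not for the study's calls. A gene that this rule names is not reported here. The alternatives run were a trended and robust prior (statmod 1.5.0), a one-way analysis of variance for each row with Benjamini-Hochberg adjustment, array weights, centring on the median, repeated quantile normalization, 2 filters on dim rows, a block for the replicate number, fits without 1 sample, and fits without Ctnnb1OE-EC replicates 3 and 4.

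The remaining marker lists had these means. Stellate cell markers were at 6.53 to 6.92 in Ctnnb1OE-EC and 5.82 to 7.29 in Ctnnb1WT samples. Smooth muscle markers were at 5.74 to 7.92 in Ctnnb1OE-EC and 5.37 to 7.9998 in Ctnnb1WT samples. Acinar markers of the pancreas were at 4.03 to 8.37 in Ctnnb1OE-EC and 4.03 to 8.82 in Ctnnb1WT samples. Cholangiocyte markers were at 4.31 to 5.05 in Ctnnb1OE-EC and 3.91 to 4.83 in Ctnnb1WT samples. Erythroid markers were at 2.90 to 3.41 in Ctnnb1OE-EC and 2.67 to 2.99 in Ctnnb1WT samples, and intestinal markers at 3.21 to 3.53 in Ctnnb1OE-EC and 3.36 to 3.51 in Ctnnb1WT samples.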

Additional observations from a re-analysis of the deposited data

Results flagged for a closer look

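In 3 of the 32 groups of 4 samples that were checked (16 genes in each genotype), 1 sample stood apart from the other 3 by more than Dixon's critical value for 4 samples, which chance alone gives in about 1 of 20 groups. Entpd1 was 8.16 in Ctnnb1OE-EC replicate 2, while the other Ctnnb1OE-EC pools lay between 9.84 and 9.98. Adora2a was 7.21 in Ctnnb1OE-EC replicate 1, while the other Ctnnb1OE-EC pools lay between 7.94 and 8.07. Adora1 was 3.98 in Ctnnb1WT replicate 1, while the other Ctnnb1WT pools lay between 4.28 and 4.30, at a level close to background.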

How the results depend on the processing

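Over all rows, limma called 234, and the analysis of variance for each row run here, which is not the study's own list of calls, called 20 (14 higher and 6 lower), with 2764 at an unadjusted p under 0.05. Leaving out Ctnnb1OE-EC replicates 3 and 4 together gave 61 calls, and leaving out 1 sample gave 92 to 223. Of the 10 adenosine genes, the analysis of variance called 0 (5 at an unadjusted p under 0.05, lowest adjusted p 0.0507). Leaving out Ctnnb1OE-EC replicates 3 and 4 gave 1, Ada, and leaving out 1 sample gave 1 to 2, with Ada in 8 of 8 fits. Of the other purine and pyrimidine genes, the analysis of variance called 0 (22 at an unadjusted p under 0.05), leaving out both replicates gave 1, P2ry10b, and leaving out 1 sample gave 1 to 6. The trended and robust prior, array weights, centring, repeated quantile normalization and both filters moved none of these 3 counts by over 1.5 times. With the replicate number as a block, 86 rows, 1 adenosine gene (Ada) and 0 other genes (23 at an unadjusted p under 0.05) were called. The numbers were not taken to pair the samples, since same-numbered deviations correlated with 0.253, -0.177, 0.027 and -0.153 for replicates 1 to 4. The sign of Entpd1 turned in 7 of 13 settings, of Adora1 in 3 and of Adora2b in 1 (0.04 without Ctnnb1OE-EC replicates 3 and 4), and the other 7 genes kept theirs in all 13. The cause was not tested. With the 99th percentile as background level, 5 of the 10 genes were above it in all samples.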
